A study of Mus musculus with 4 samples.

Results

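Rag1, Rag2 and Dntt, the genes of V(D)J recombination, were followed through 4 single-cell libraries of mouse bone marrow. They are 3 of the 32285 genes counted in each library, and all 3 were found by symbol in every one. The Kit+ libraries hold CD45.2+Kit+ marrow cells, from a control, from cells with Mll3/4 deleted and from cells labelled Mll3/4SI. The B220lo library holds CD45.2+B220lo marrow cells of a control. All were taken 10 weeks after transplantation and made with a 5′ single-cell kit. There was 1 library per group. The number of donors or recipients, the way Mll3/4 was deleted and the meaning of SI are not given in the sources used here. Mll3 and Mll4, encoded by Kmt2c and Kmt2d, are large histone methyltransferases that act at enhancers.

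Rag1 and Rag2 proteins form the recombinase that cuts DNA beside the V, D and J segments of antigen receptor genes. Dntt encodes terminal deoxynucleotidyl transferase, which adds untemplated bases to the cut ends before they are joined. In B-cell development the heavy chain joins D to J and then V to DJ, usually while Dntt is on. A productive heavy chain pairs with the surrogate light chain, the cells divide as large pre-B cells with the recombinase turned down, and Rag1 and Rag2 return in small pre-B cells for light-chain joining.

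On the GRCm38 (mm10) build the GENCODE annotation places Rag1 (ENSMUSG00000061311) at chr2:101638282-101649501 on the minus strand. Rag2 (ENSMUSG00000032864) lies at chr2:101624718-101632529 on the plus strand, so that the ends of both genes face each other across 5753 bases. Each of them has its coding sequence in 1 exon. Dntt (ENSMUSG00000025014) lies at chr19:41029275-41059525 on the plus strand with 12 coding exons. The 80-base first exon of Rag1 lies wholly within an exon of B230118H07Rik on the same strand, and 208 bases of the last Rag2 exon overlap that gene on the opposite strand. How reads in the shared bases were assigned is not given in the sources used here.

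The libraries held 12205 to 16861 barcodes and 85445426 to 166327773 UMIs, and 11144 to 15524 cells per library remained after filtering, with a median of 3265 UMIs per cell in B220lo and 6549 to 12013 in the Kit+ libraries. The libraries shared 214 to 345 barcodes in pairs. Transcripts of Xist reached 421, 464 and 546 CPM (UMIs per 1000000 UMIs) in control Kit+, Mll3/4SI and B220lo cells but 0.347 CPM in the deleted library, where Ddx3y stood at 31.4 CPM against 0, 0 and 0.128 CPM in the other libraries. The deleted cells thus differ from the others in sex as well, which cannot be told apart from genotype here. Kmt2c was at 57.7, 51.5, 61.8 and 146 CPM and Kmt2d at 23.8, 20, 20.7 and 41.2 CPM in control Kit+, deleted, Mll3/4SI and B220lo. Since 5′ tags need not read the deleted part, these levels do not check the deletion.

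B-lineage cells were those with at least 20 UMIs of 10 B-lineage genes per 10000 UMIs. They numbered 12998 in the deleted Kit+ library and 12703 in B220lo, but 44 in control Kit+ and 24 in Mll3/4SI. The 3 genes could be followed through heavy- and light-chain rearrangement in the deleted and B220lo libraries only. These differ in genotype, in the sorted population and in sex at once, and what belongs to each cannot be told apart. Each such cell was placed by its assembled receptor transcripts (contigs, all productive) into cells without a contig, with a heavy chain (IGH) only, or with IGH plus a light chain. A cell without a contig may still hold a rearrangement that was not assembled. With 1 library per group there is no replicate check and no test. Intervals are exact 95% intervals that cover counting error only, and a gene was called different when it differed 2-fold on the log2(CPM + 1) scale with at least 20 UMIs in the higher group.

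The joints of assembled heavy chains carry the traces of these enzymes. Shown here are CDR3 sequences, the stretch across the V, D and J joints, of common rearrangements in the deleted and B220lo libraries. Capitals mark bases that were assigned to no germline V, D or J segment, among them the bases that Dntt adds. A D match had to span at least 5 bases, so shorter D stretches are in capitals as well.
Deleted IGHV5-2 IGHJ2 in 392 cells: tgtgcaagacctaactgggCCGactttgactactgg
Deleted IGHV5-2 IGHJ2 in 216 cells: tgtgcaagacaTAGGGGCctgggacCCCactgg
Deleted IGHV5-15 IGHJ3 in 110 cells: tgtgcaagacagctcaggctacGTGAg
B220lo IGHV6-6 IGHJ2 in 7 cells: tgtaccaggGGGGGctactgg
B220lo IGHV10-1 IGHJ2 in 7 cells: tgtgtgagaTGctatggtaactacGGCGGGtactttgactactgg
The deleted examples carry 3, 10 and 4 unmatched bases and the B220lo examples 5 and 8.

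Many large deleted rearrangements used different V genes yet ended in the same bases. The next sequences, all from the deleted library, show this, with the shared last 24 bases in capitals.
IGHV5-2 in 392 cells: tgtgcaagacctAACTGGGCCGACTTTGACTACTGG
IGHV5-2 in 342 cells: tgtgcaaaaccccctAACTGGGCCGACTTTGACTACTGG
IGHV5-15 in 151 cells: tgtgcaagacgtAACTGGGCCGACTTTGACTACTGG
IGHV2-6-8 in 98 cells: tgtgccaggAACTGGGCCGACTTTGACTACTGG
IGHV11-2 in 96 cells: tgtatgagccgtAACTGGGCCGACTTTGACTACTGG
The shared end spans D and IGHJ2 with 3 unmatched bases between them.

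In summed UMIs, all 3 genes were lower in cells with a heavy chain than in cells without a contig in the control B220lo library, Dntt by far the most, and in the deleted library they were level or slightly higher. For Rag1 this depended on how cells were weighed: as a mean over cells its B220lo level was 292 CPM without a contig and 275 CPM with IGH only, a log2 difference of -0.085 in place of -0.58. In B220lo, Rag1 was at 194 CPM (187 to 201) in 3776 cells without a contig, 129 CPM (122 to 136) in 1726 cells with IGH only and 116 CPM (112 to 120) in 6617 cells with IGH plus a light chain. In the deleted library it was at 210 CPM in 9933 cells without a contig (207 to 213) and at 210 CPM in 3032 cells with IGH only (205 to 216). The intervals of the B220lo states do not overlap, while those of the deleted states do.

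Rag2 in B220lo was at 117 CPM (112 to 122) without a contig, 66.8 CPM (61.8 to 72.0) with IGH only and 52.9 CPM (50.3 to 55.6) with both chains. In the deleted library it was at 160 CPM (157 to 163) without a contig and 167 CPM (162 to 173) with IGH only. Dntt had the steepest course in B220lo, from 420 CPM (410 to 431) without a contig to 26.4 CPM (23.3 to 29.8) with IGH only and 46.4 CPM (43.9 to 48.9) with both chains. In the deleted library Dntt was at 1288 CPM without a contig (1280 to 1296) and 1336 CPM with IGH only (1321 to 1351). The deleted library had only 20 cells with IGH plus a light chain, where the summed levels of Rag1, Rag2 and Dntt were 187 CPM, 149 CPM and 1336 CPM. In these cells Dntt was found in 65% (40.8 to 84.6) against 98.0% with IGH only, and the 5 mature B genes, all found, summed to 1515 CPM against 16.0 CPM; their part in the result was not tested.

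**Figure D1:**
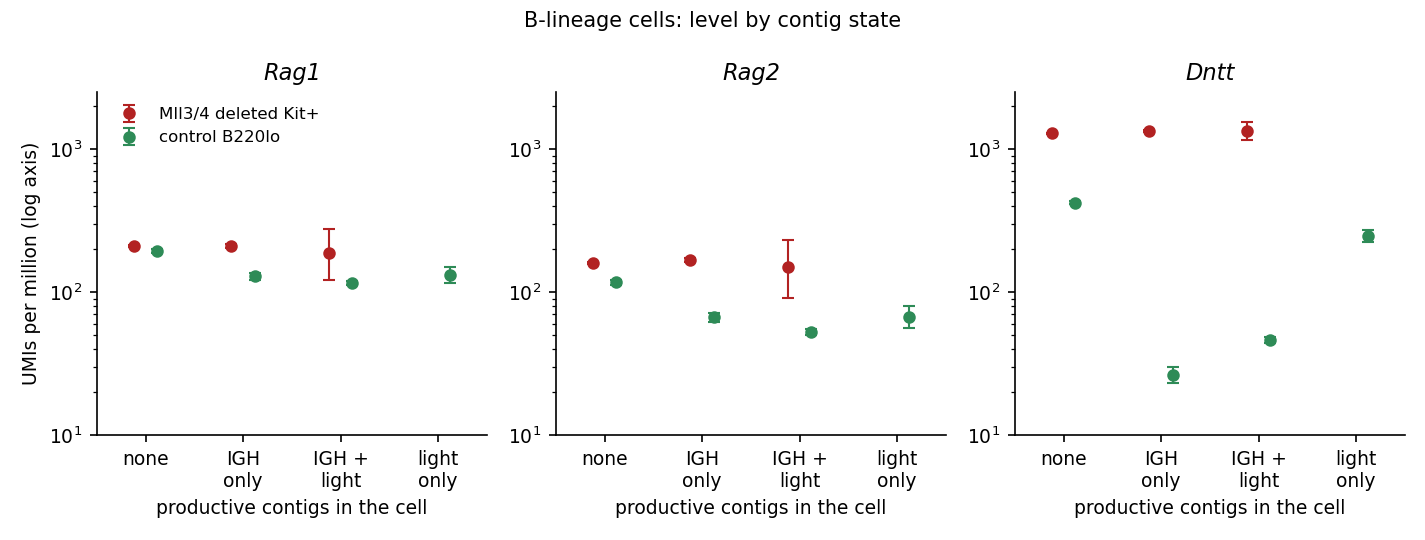
Level in CPM (log axis) of Rag1, Rag2 and Dntt in B-lineage cells of the deleted Kit+ (red) and control B220lo (green) libraries, by the productive contigs of the cell; points are summed levels and bars exact 95% counting intervals. Deleted cells stay near 1 level for each gene, whereas B220lo Dntt goes from 420 CPM without a contig to 26.4 CPM with IGH only.

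Within B220lo, the ratio of IGH only to no contig was 0.667 (0.625 to 0.712) for Rag1, 0.571 (0.523 to 0.624) for Rag2 and 0.0628 (0.0554 to 0.0710) for Dntt. On the log2(CPM + 1) scale Dntt differed by -3.94, the lowest of all 12405 genes compared, where the median was -0.16. Dntt was the only member past 2-fold, in the lower direction, where 5.47% of all genes were lower and 0.274% higher. From IGH only to IGH plus light chain the ratios were 0.895 for Rag1 (0.839 to 0.955), 0.792 for Rag2 (0.723 to 0.868) and 1.76 for Dntt (1.54 to 2.01). None of the 3 passed 2-fold, against 4.41% of genes higher and 0.251% lower. As means over cells this step was larger for both Rag genes, -0.76 rather than -0.16 for Rag1 and -0.81 rather than -0.33 for Rag2 on the log2(CPM + 1) scale, and smaller for Dntt, 0.23 rather than 0.79. At 2000 UMIs 31.4% of IGH-only and 20.3% of IGH plus light chain cells held Rag1, against 42.9% and 28.8% unthinned. Within the deleted library the ratios of IGH only to no contig were 1.0 (0.970 to 1.03), 1.05 (1.01 to 1.08) and 1.04 (1.02 to 1.05) for Rag1, Rag2 and Dntt, and 0 of the 3 passed 2-fold where 0.263% of genes were higher and 0.0781% lower.

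Between the libraries, in cells with IGH only, deleted over B220lo was 1.63 for Rag1 (1.53 to 1.73), 2.51 for Rag2 (2.31 to 2.72) and 50.6 for Dntt (44.8 to 57.3). Rag2 and Dntt passed 2-fold, as did 16.1% of all genes in the higher and 10.6% in the lower direction, so that a 2-fold difference is common between these libraries. Averaged over cells instead of over UMIs, Rag1 differed by 0.08 on the log2 scale rather than 0.70, and Rag2 by 0.89 rather than 1.31, which ended its 2-fold call. In cells without a contig the ratios were 1.08 (1.04 to 1.13), 1.37 (1.30 to 1.44) and 3.06 (2.99 to 3.14), and Dntt alone passed 2-fold where 10.7% of genes were higher and 14.2% lower.

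The libraries were also compared cell by cell at equal depth. With every cell reduced to 2000 UMIs, Dntt was found in 85.7% of deleted IGH-only cells and 4.17% of B220lo IGH-only cells, leaving out 84 and 264 shallower cells. Without thinning the shares were 98.0% and 7.76%. A myeloid gate, cells with Mpo and Elane, was set beside them. It does not leave out Flt3+ progenitors, so Dntt need not be absent from it. At 2000 UMIs 3.61% of its deleted cells and 1.41% (0.0357 to 7.60) of its 71 B220lo cells held Dntt. Their medians were 18624 and 17630 UMIs per cell against 6452.5 and 3099 in the IGH-only cells. Dntt was at 4.86 CPM (1.78 to 10.6) in these B220lo cells, below the 26.4 CPM of its IGH-only cells, while the intervals of the B220lo shares overlap.

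Within B220lo, Rag1 was found in 32.4% (30.7 to 34.2) of cells without a contig and 31.4% (29.0 to 33.8) with IGH only at 2000 UMIs, so that its share did not separate these states. Rag2 was found in 22.1% and 16.9% and Dntt in 23.6% and 4.17%. Between the libraries, Rag1 was found in 35.7% of deleted and 31.4% of B220lo IGH-only cells at 2000 UMIs, and Rag2 in 31.6% and 16.9%. Without thinning Rag1 was found in 66.5% and 42.9% and Rag2 in 64.7% and 27.6%. The Mpo and Elane cells of the deleted library held Rag1 in 1.0% and Rag2 in 0.802%. At 2000 UMIs 47.9% of deleted IGH-only cells had Dntt with Rag1 or Rag2, against 2.12% in B220lo. A Rag transcript without Dntt was found in 38.4% of the B220lo IGH-only cells. These joint shares carry the Dntt difference given above. Whether the genes went together beyond their single shares was not tested.

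The control Kit+ and Mll3/4SI libraries had few B-lineage cells to compare. Their 20 and 7 cells without a contig held Rag1 at 52.7 and 107 CPM, Rag2 at 58.5 and 120 CPM and Dntt at 580 and 853 CPM, from at most 99 UMIs each. The 23 and 16 cells with IGH plus a light chain held 0 UMIs of all 3 genes, which by a floor of 3 counts allows 55.5 and 44.5 CPM. Vpreb1, Vpreb2 and Igll1 were also at 0 in those 23 control cells.

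The surrogate light chain, made of Igll1 and Vpreb proteins, marks pro-B and large pre-B cells, and among B220lo cells with IGH only those with much of it had little recombinase transcript. Among B220lo cells with IGH only, Rag1 was at 285 CPM in 969 cells with 0 UMIs of Vpreb1, Vpreb2 and Igll1, 131 CPM in 518 cells with 1 to 9 and 14.5 CPM in 239 cells with 10 or more. Rag2 went from 123 to 82.2 and 16.8 CPM over the same classes, and Dntt was at 17.5, 15.6 and 39.5 CPM. Rag1 was 19.6-fold (15.2 to 25.8) and Rag2 7.28-fold (5.65 to 9.48) higher in the class with 0 than in that with 10 or more. These classes differ in depth too, with medians of 2571 and 18547 UMIs per cell, and the part of depth was not tested.

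Deleted IGH-only cells with 10 or more surrogate light chain UMIs, 91.2% of the state against 13.8% in B220lo, held Rag1 at 200 CPM, Rag2 at 165 CPM and Dntt at 1337 CPM. In 260 deleted cells with 1 to 9 such UMIs Rag1 was at 488 CPM, 2.44-fold (2.21 to 2.70) higher, Rag2 at 223 CPM, 1.35-fold (1.16 to 1.55) higher, and Dntt at 1323 CPM. Against B220lo cells with 10 or more such UMIs, the deleted levels in that class were 13.7-fold (10.7 to 17.9), 9.81-fold (7.78 to 12.5) and 33.9-fold (29.2 to 39.6) higher. The classes use raw UMIs and so move with depth: the median was 18547 UMIs per cell in the B220lo class with 10 or more and 6859.5 in the deleted one. In the deleted class with 1 to 9 it was 2943 UMIs.

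The same class also separates the libraries by contig state. Among B220lo cells with 10 or more surrogate light chain UMIs, 732 without a contig held Rag1, Rag2 and Dntt at 131, 132 and 921 CPM. In the 239 with IGH only the 3 genes were 9.01-fold (6.97 to 11.8), 7.84-fold (6.17 to 10.1) and 23.3-fold (20 to 27.3) lower. Among deleted cells of this class the ratios of IGH only to no contig were 0.989, 1.04 and 1.03. Without a contig, deleted over B220lo in this class was 1.54 for Rag1 (1.44 to 1.65), 1.21 for Rag2 (1.13 to 1.30) and 1.41 for Dntt (1.37 to 1.45). In this class the libraries lay nearer each other without a heavy-chain contig than with IGH only. The B220lo cells compared differed in depth as well, with a median of 5485.5 UMIs without a contig and 18547 with IGH only.

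Dividing cells held less Rag1 in both libraries. Cells were classed by UMIs of a 20-gene G2/M list among 2000 drawn. Cells under 2000 UMIs have no class, which leaves out 264 B220lo and 84 deleted IGH-only cells. The class levels are therefore not parts of the whole-state levels given above. In B220lo IGH-only cells Rag1 was at 321 CPM in the class with 0 such UMIs, 266 CPM with 1 to 2 and 35.8 CPM with 3 or more. In deleted IGH-only cells Rag1 was at 275, 267 and 130 CPM. The step from 0 to 3 or more was 8.97-fold (7.62 to 10.6) in B220lo and 2.11-fold (1.97 to 2.26) in the deleted library.

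Rag2 over these classes was at 134, 109 and 40.2 CPM in B220lo and 193, 186 and 138 CPM in the deleted library. Dntt was at 43.6, 39.9 and 19.3 CPM in B220lo and at 1517, 1476 and 1128 CPM in the deleted library. Among cells with 0 G2/M UMIs the order of the libraries was reversed for Rag1, deleted over B220lo being 0.855 (0.768 to 0.954), and stayed for Rag2 at 1.44 (1.23 to 1.70) and Dntt at 34.8 (26.7 to 46.2). Among cells with 3 or more, the 3 genes were 3.63-fold, 3.44-fold and 58.6-fold higher in the deleted library. The 2-fold call of Rag2 in IGH-only cells therefore ended among cells with 0 G2/M UMIs. Cells with 3 or more made up 43.8% of B220lo and 31.1% of deleted IGH-only cells.

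**Figure D2:**
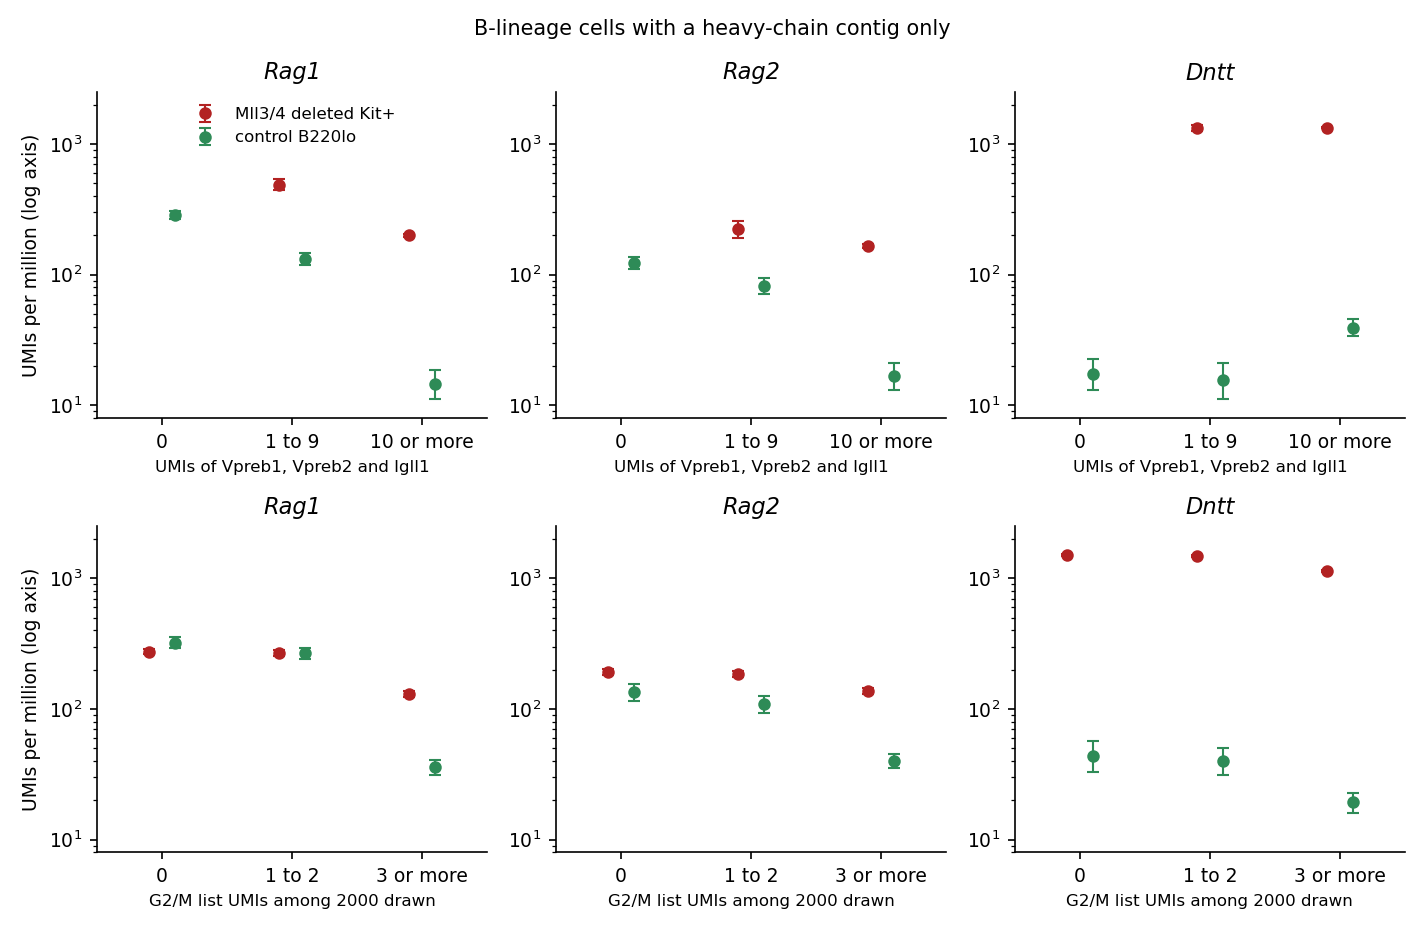
Level in CPM (log axis) of the 3 genes in cells with IGH only, by UMIs of the surrogate light chain genes (top) and by G2/M list UMIs among 2000 drawn (bottom), deleted in red and B220lo in green, with exact 95% counting intervals. The bottom row leaves out cells under 2000 UMIs. The 6 deleted cells with 0 surrogate UMIs are not drawn; B220lo Rag1 goes from 285 to 14.5 CPM across the top classes and from 321 to 35.8 CPM across the bottom ones, and the deleted points move far less.

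B220lo cells without a contig were a mixture. Dntt UMIs were found in 23.3% of them, and 5% of the cells held 59.6% of its UMIs. Dntt went from 30.7 CPM in cells with 0 surrogate light chain UMIs through 163 CPM to 921 CPM in cells with 10 or more. Cells with at least 1 Dntt UMI held Rag2 at 167 CPM against 88.7 CPM in cells with 0, a ratio of 1.89 (1.72 to 2.07), and Rag1 at 185 against 199 CPM. Deleted cells without a contig held a Dntt UMI in 97.4%, and compared with the Dntt-containing B220lo cells their Rag1 and Rag2 ratios were 1.14 (1.07 to 1.22) and 0.963 (0.902 to 1.03). Those cells were chosen on Dntt, so their own Dntt levels are not compared.

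With both chains assembled, the Rag genes were lower where the mature B-cell gene Ms4a1, which encodes CD20, was found. Of the B220lo cells with IGH plus light chain, 3353 with 0 Ms4a1 UMIs held Rag1 at 158 CPM and Rag2 at 75.2 CPM. The 3264 with at least 1 held 69.0 and 28.0 CPM. The ratios were 2.29 (2.12 to 2.47) and 2.69 (2.39 to 3.02), and 1.53 (1.37 to 1.71) for Dntt, at median depths of 2905 and 3174 UMIs.

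Light-chain joining starts at kappa and may go on to lambda. Rag1 was at 110 CPM in 5272 cells with kappa only, 141 CPM in 1103 with lambda only and 136 CPM in 242 with both. Lambda over kappa was 1.28 for Rag1 (1.18 to 1.40), 1.09 for Rag2 (0.951 to 1.25) and 0.817 for Dntt (0.694 to 0.956). Only the intervals of Rag1 and Dntt leave out 1. The groups were not matched on Ms4a1, and its part in these ratios was not tested. The Dntt transcripts of this state came from few cells: 465 of 6617 had a UMI and 5% of the cells held 90.1% of them.

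The deleted IGH-only cells belonged to few heavy-chain clones, defined by the same V gene, J gene and CDR3 bases. They fell into 572 clones, 12 of them with at least 50 cells and the largest with 391 cells, 12.9% of the state. In B220lo 1726 cells fell into 1723 clones. Rag1 ranged from 96.8 to 338 CPM over the 12 large deleted clones with a median of 245 CPM, Rag2 from 98.2 to 236 CPM with a median of 185 CPM, and Dntt from 1062 to 1788 CPM with a median of 1501 CPM. The lowest level of both Rag genes was in the clone of 151 cells with IGHV5-15 and IGHJ2 printed above, whose Dntt was at 1182 CPM. The 1260 cells of smaller clones held the 3 genes at 192, 154 and 1210 CPM. That clone lay below the 129 CPM of B220lo IGH-only cells in Rag1, whereas Dntt in all 12 large clones was far above their 26.4 CPM.

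**Figure D3:**
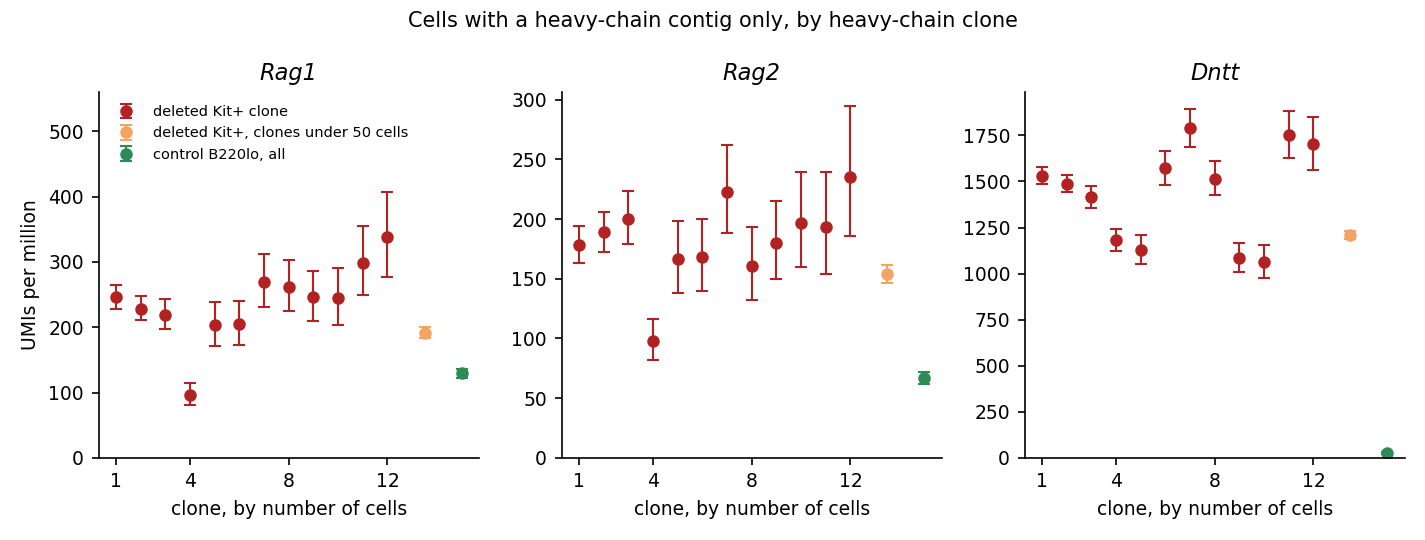
Level in CPM of each gene in the 12 deleted heavy-chain clones with at least 50 cells, ordered by number of cells, with exact 95% counting intervals (red); orange marks deleted clones under 50 cells and green all B220lo IGH-only cells. Dntt is at 1062 CPM or more in every clone, and the clone of 151 cells has the lowest Rag1 and Rag2.

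The shared D-J end printed above was found in 31 of 538 deleted rearrangements that were long enough to compare, over 15 V genes and 1313 of 2801 cells (46.9%). It was chosen after the sequences were seen. The next most shared deleted ends covered 11 and 7 V genes with 132 and 117 cells. In B220lo the most shared end was in 29 of 7999 rearrangements, 25 V genes and 29 cells, 0.363% of rearrangements against 5.76% for the deleted one. No B220lo IGH-only cell had the deleted library's end.

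Cells with the shared end differed little from the rest in the Rag genes. The 1310 IGH-only cells with it held Rag1, Rag2 and Dntt at 217, 171 and 1491 CPM and the 1722 without it at 206, 164 and 1222 CPM. The ratios were 1.05 (0.996 to 1.11), 1.04 (0.977 to 1.11) and 1.22 (1.19 to 1.25). IGHV5-2, the V gene that lies close to the D segments, made up 140 of 583 deleted rearrangements.

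Heavy-chain joints had a similar number of unmatched bases in both libraries. Distinct rearrangements, each counted once, had a median of 7 unmatched bases in both libraries, with a mean of 8.55 ± 5.21 (SD over 583 rearrangements) in deleted and 7.81 ± 4.34 (SD over 8618) in B220lo. Only 0.858% (0.279 to 1.99) of deleted and 1.07% (0.861 to 1.31) of B220lo rearrangements had 0 unmatched bases. Rearrangements that used IGHJ2 had a median of 8 in 287 deleted and 7 in 3359 B220lo ones. The deleted rearrangements are not independent, since many share a D-J end. A base that differs from the reference segment, an allele or a palindromic base also counts as unmatched. So does a D stretch under 5 bases. No D match was found in 9.61% of deleted and 13.4% of B220lo rearrangements. In kappa light chains, 69.0% of 29 deleted (49.2 to 84.7) and 76.2% of 1269 B220lo rearrangements (73.8 to 78.5) had 0 unmatched bases. In B220lo, kappa joints were thus mostly without unmatched bases and heavy-chain joints mostly with them.

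**Figure D4:**
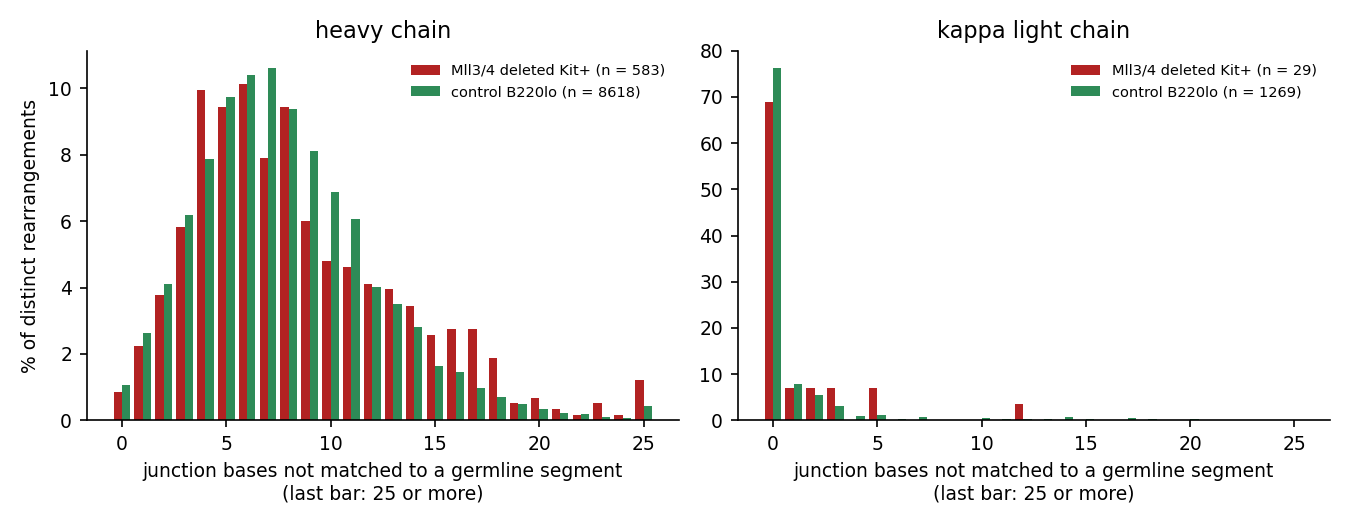
Share of distinct rearrangements (%) by the number of junction bases that matched no germline segment, heavy chain on one panel and kappa chain on the other, for the deleted and B220lo libraries. Heavy chains of both libraries centre on a median of 7 bases, while 76.2% of B220lo kappa rearrangements have 0.

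Some of the enzymes that join the cut ends were lower in the deleted library. Of 14 RAG partners and end-joining genes, 1 was higher and 4 were lower in deleted than in B220lo IGH-only cells, against 16.1% of all genes higher and 10.6% lower. Their median log2 difference was -0.31 against 0.01 over all genes. The lower ones were Polm, a DNA polymerase related to Dntt that acts in end joining, at 1.84 against 94.6 CPM, Xrcc6, which encodes Ku70, at 103 against 293 CPM, Dclre1c, which encodes the hairpin-opening nuclease Artemis, at 15.1 against 42.6 CPM, and Lig4, the ligase, at 21.2 against 54.8 CPM. The higher one was Poll, another polymerase, at 10.6 against 4.35 CPM. In cells without a contig 0 were higher and 5 lower, against 10.7% and 14.2% of all genes. None of the 14 passed 2-fold between contig states of either library, where few genes did. From no contig to IGH only, 0.274% of all genes were higher and 5.47% lower in B220lo, and 0.263% and 0.0781% in the deleted library. From IGH only to IGH plus light chain in B220lo, 4.41% were higher and 0.251% lower.

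Of 20 genes known to regulate Rag or Dntt, 3 were higher and 8 lower in deleted IGH-only cells, against 16.1% and 10.6% of all genes, with a median of -0.69. Foxo1, an activator of the Rag genes, was at 974 against 192 CPM, Erg at 506 against 20.2 CPM and Lef1 at 447 against 184 CPM. The largest gap downward was in Ikzf3, which encodes the Ikaros-family factor Aiolos, at 1.05 against 299 CPM. In cells without a contig 2 were higher, again Foxo1 and Erg, and 11 lower, against 10.7% and 14.2% of all genes. From no contig to IGH only in B220lo, Erg was the 1 gene past 2-fold lower, at 217 and then 20.2 CPM, and Gfi1b the 1 higher, at 3.56 and then 8.21 CPM, against 5.47% of all genes lower and 0.274% higher. No regulator passed 2-fold between these states in the deleted library, where 0.263% of all genes were higher and 0.0781% lower.

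Of 10 genes listed as early lymphoid, 2 were higher and 6 lower in deleted IGH-only cells, against the same 16.1% and 10.6%, with a median of -1.48. The list mixes progenitor genes with the constant regions Ighm and Igkc, so its counts are not read as 1 programme. The higher ones were Flt3, the receptor of early progenitors, at 33.0 against 4.45 CPM and Cd34, a progenitor surface marker, at 5.74 against 2.27 CPM. Among the lower ones was the kappa constant region Igkc at 0.168 against 73.4 CPM. In B220lo Flt3 and Ccr9 were the 2 genes of this list past 2-fold lower in IGH-only cells than without a contig, where 5.47% of all genes were. The lists were chosen with earlier results known, and whether they differ from other genes was not tested.

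In the progenitors of the control and Mll3/4SI Kit+ libraries, Dntt was the member found at length, Rag2 was sparse and Rag1 was at 0. In the deleted progenitors Rag1 and Rag2 stood at similar low levels, both below Dntt. All progenitors had no contig and fell under the B-lineage cut. They were gated by at least 1 UMI of Flt3, a receptor of multipotent and lymphoid-primed progenitors, or of Hlf, a transcription factor of stem cells. Rag1 had 0 UMIs in 2308 control and 2682 Mll3/4SI Flt3+ cells, which allows up to 0.0987 and 0.0855 CPM by the same floor, and 0 in their 2535 and 3248 Hlf+ cells. The deleted library held 8 Rag1 UMIs in 81 Flt3+ cells (5.42 CPM, 2.34 to 10.7) and 10 in 166 Hlf+ cells (3.69 CPM, 1.77 to 6.78). Its Klf1+ Car1+ erythroid and Mpo+ Elane+ cells, which should lack Rag1, were at 4.87 CPM (1.58 to 11.4) and 3.17 CPM (2.12 to 4.55). These intervals overlap those of the progenitors, so no Rag1 expression is read from the progenitor levels.

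Dntt in Flt3+ cells was at 54.1 CPM (51.5 to 56.7) in control, 123 CPM (105 to 142) in deleted and 41.8 CPM (39.7 to 44.0) in Mll3/4SI. The intervals of the 3 libraries do not overlap. Deleted over control was 2.27 (1.93 to 2.65), past 2-fold where 0.452% of genes were higher and 6.67% lower, and Mll3/4SI over control was 0.773 (0.720 to 0.829), not past 2-fold, where 1.71% were higher and 0.85% lower. The deleted value rests on few cells: 26 of 81 had a UMI, 4 cells held 77.3% of the UMIs and 1 cell held 69. B-lineage markers were also higher there, 9 of the 10 found and together at 180 CPM against 49.9 CPM in control and 48.6 CPM in Mll3/4SI, with Vpreb2 at 0 and Ebf1 at 17.6 against 0.658 CPM in control. They were not limited to Flt3+ cells: in the deleted library the same markers stood at 180 CPM in Hlf+, 164 CPM in Mpo+ Elane+ and 77.9 CPM in Klf1+ Car1+ cells. Their part in the result was not tested. Thinned to 2000 UMIs, 6.43% (5.46 to 7.51), 8.75% (3.59 to 17.2) and 5.20% (4.39 to 6.11) of Flt3+ cells held Dntt. In Mpo+ Elane+ cells, a gate that shares cells with Flt3+, the shares were 0.896%, 3.61% (2.15 to 5.64) and 1.11%. The deleted Flt3+ interval overlaps those of the other libraries and of its Mpo+ Elane+ cells, so by share it did not stand apart. Unthinned these shares were 14.0%, 32.1% and 13.2% in Flt3+ cells and 2.53%, 19.2% and 3.23% in Mpo+ Elane+ cells, at medians of 12289, 19155 and 11874 and of 13688, 18624 and 14031 UMIs.

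Many Flt3+ cells also passed the Mpo+ Elane+ gate, and outside it the libraries lay further apart. There Dntt was at 148 CPM in 835 control cells, 395 CPM in 31 deleted cells and 63.8 CPM in 1149 Mll3/4SI cells, and Mll3/4SI over control was 0.430 (0.392 to 0.471). The 31 deleted cells are part of the 81 Flt3+ cells, where 26 cells held all 181 Dntt UMIs and the highest cell held 69. Their value thus rests on few cells. This split was chosen after the data were seen. It moves the Mll3/4SI value past 2-fold, and how many of all genes pass 2-fold in this split was not counted.

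Dntt in Hlf+ cells was at 19.2 CPM in control, 27.3 CPM in deleted and 22.4 CPM in Mll3/4SI, with ratios to control of 1.42 (1.10 to 1.81) and 1.17 (1.05 to 1.30). Neither passed 2-fold, where 0.727% of genes were higher and 4.75% lower in deleted and 1.38% higher and 1.05% lower in Mll3/4SI. In the deleted cells 1 cell held 26 of the 74 UMIs, Mpo+ Elane+ cells of the same library stood at 13.2 CPM, and at 2000 UMIs the shares of cells with Dntt were 4.24% in Hlf+ and 3.61% in Mpo+ Elane+ cells. Neither direction held throughout: on the log2(CPM + 1) scale deleted over control went from 0.49 to -0.51 with at least 2 Hlf UMIs, and Mll3/4SI over control from 0.21 to -0.09 in cells without any B-lineage UMI. In control and Mll3/4SI nearly all of it sat in cells that also had Flt3: Hlf+ cells with 0 Flt3 UMIs were at 1.73 CPM in control and 1.29 CPM in Mll3/4SI, against 46.4 and 51.7 CPM in those with at least 1. In the deleted library these levels were 15.5 CPM and 77.3 CPM. In Flt3+ cells with 0 Hlf UMIs the order was the other way, 58.9 CPM in control and 31.5 CPM in Mll3/4SI. Among Flt3+ cells the lower Mll3/4SI level thus lay in those without Hlf. Dntt was also lower in Mll3/4SI in some gates set by genes of other lineages, which do not leave out Flt3+ cells. The ratio to control was 0.433 (0.304 to 0.620) in Cpa3+ Gata2+ cells. That gate is mixed: in control it held the granulocyte and monocyte genes at 13207 CPM. In Klf1+ Car1+ and Pf4+ Itga2b+ cells it was 0.138 (0.0276 to 0.428) and 0.269 (0.0789 to 0.739), from 3 and 5 Mll3/4SI UMIs. In Mpo+ Elane+ cells it was 1.11 (0.995 to 1.25).

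Rag2 was found at a low level in more Mll3/4SI than control cells. In Flt3+ cells it was at 1.25 CPM (0.884 to 1.72; 38 UMIs) in control, 5.42 CPM (2.34 to 10.7; 8 UMIs) in deleted and 3.91 CPM (3.28 to 4.62; 137 UMIs) in Mll3/4SI. In Hlf+ cells it was at 0.990, 5.16 and 2.75 CPM, and in Mpo+ Elane+ cells at 0.946, 2.73 and 2.86 CPM. Mll3/4SI over control was 3.13 (2.17 to 4.60) in Flt3+, 2.78 (1.85 to 4.30) in Hlf+ and 3.02 (2.33 to 3.95) in Mpo+ Elane+ cells. On the log2(CPM + 1) scale, which understates low genes, these were 1.12, 0.91 and 0.99, so that 1 of the 3 passed 2-fold. That call in Flt3+ cells ended at 0.99 as a mean over cells and at 0.31 with a pseudocount of 10 CPM. The gates share cells, so their ratios are not separate results. In Flt3+ cells outside the Mpo+ Elane+ gate Rag2 was at 3.47 CPM in Mll3/4SI and 1.93 CPM in control. The ratio there was 1.80 (0.980 to 3.49), an interval that includes 1. In Mpo+ Elane+ cells 1.69% of all genes were higher and 0.564% lower in Mll3/4SI, and 0.925% higher and 3.36% lower in deleted.

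The Rag2 difference was not limited to the Flt3+ and Hlf+ gates, though the other gates do not leave out such cells. In Cpa3+ Gata2+ cells Mll3/4SI over control was 3.48 (1.62 to 8.92). In Pf4+ Itga2b+ cells it was 2.69 (0.440 to 28.3), from 5 and 2 UMIs, an interval that includes 1. Klf1+ Car1+ erythroid cells were at 0.294 CPM in Mll3/4SI from 5 UMIs and 0.0255 CPM in control from 1. Over all cells without a contig under the B-lineage cut the ratio was 3.48 (2.78 to 4.40). Rag1 did not go with it: the same Mll3/4SI cells held 365 Rag2 UMIs and 1 Rag1 UMI, whereas the 7 B-lineage cells without a contig in that library held 9 and 8, and its 16 with IGH plus light chain and 1 with a light chain only held 0 of each. The overlapping gene B230118H07Rik had ratios of 1.10, 1.19 and 1.09 in the 3 gates. At 2000 UMIs 0.823% of Mll3/4SI and 0.348% of control Flt3+ cells held Rag2, against 4.51% and 1.60% unthinned. At 2000 UMIs the share was 0.698% in Mll3/4SI Mpo+ Elane+ cells (0.512 to 0.930), an interval that overlaps that of Flt3+ cells (0.516 to 1.24), whereas the level of 2.86 CPM (2.53 to 3.21) lay below the 3.91 CPM of Flt3+ cells.

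**Figure D5:**
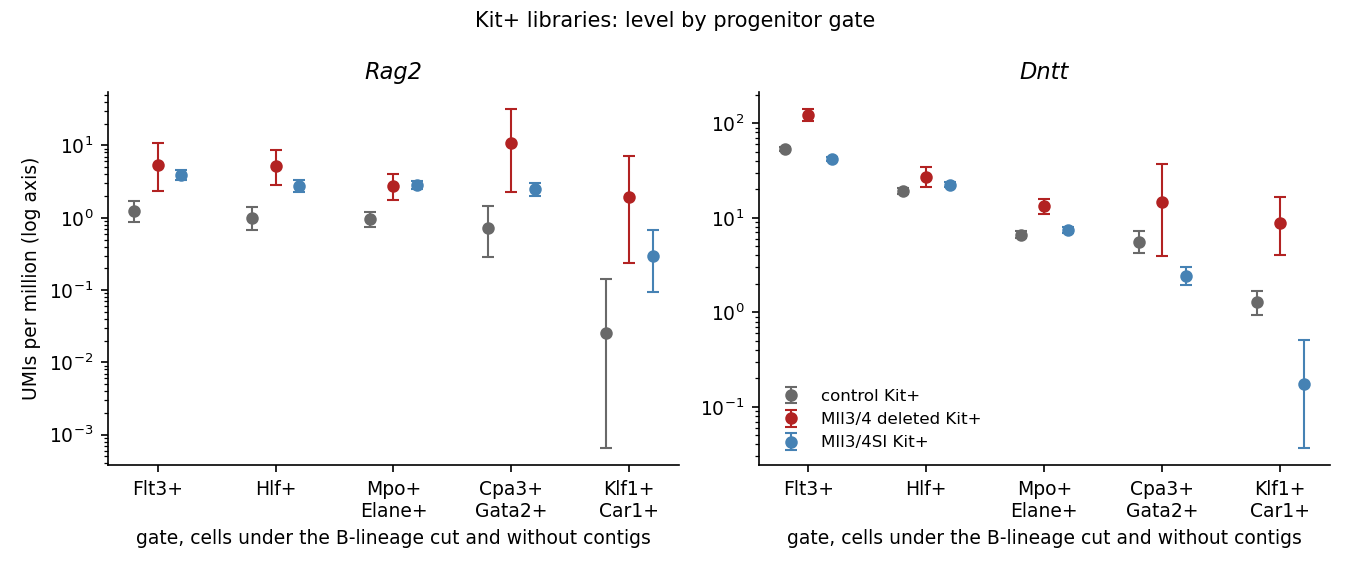
Level in CPM (log axis) of Rag2 and Dntt in 5 gates of the Kit+ libraries, control in grey, deleted in red and Mll3/4SI in blue, with exact 95% counting intervals. Dntt in Flt3+ cells is highest in the deleted library at 123 CPM and Rag2 is higher in Mll3/4SI than in control in each gate, with overlapping intervals in Klf1+ Car1+ cells.

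Few partner and regulator genes passed 2-fold in Flt3+ progenitors. In Mll3/4SI over control 0 of 14 end-joining genes and 0 of 16 measured regulators passed 2-fold. Of 7 measured genes on the early lymphoid list 1 was lower, Ighm at 30.5 against 71.2 CPM. Of all genes 1.71% were higher and 0.85% lower. In deleted over control 0 of 14 end-joining genes and 2 of 15 regulators passed, both higher, where 0.452% of all genes were: Foxo1 at 14.9 against 6.61 CPM and Ebf1, a B-lineage factor, at 17.6 against 0.658 CPM. Both were also higher in deleted Mpo+ Elane+ cells, Foxo1 at 17.5 against 4.55 CPM and Ebf1 at 16.2 against 0.0379 CPM, among 4 of 18 regulators higher there, where 0.925% of all genes were. B-lineage markers stood at 164 CPM in those cells and 180 CPM in Flt3+ cells, and their part in the result was not tested.

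Across the 28 library states with at least 50 cells, the genes whose log2(CPM + 1) followed each member best among 17401 were ranked by Pearson correlation, as a description, since the states share libraries and cells. Rag1 was followed closely by Gfra1 (0.991), Ebf1, Pou2af1 and Pax5. Rag2 was followed by Snx2 (0.972), Atad1, Rag1 (0.963) and Vpreb1, among others. Ebf1, Pax5 and Vpreb1 are among the 10 genes that set the B-lineage cut, so part of their likeness is built into the states. Dntt was followed less closely, by Syne2 (0.898), Nf1, Rcbtb1, Gm34574 and Acvr2a, and its correlation with Rag1 was 0.769 and with Rag2 0.786.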

How the data were processed

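The deposited values were counts of UMIs per gene and cell, made with Cell Ranger 7.1.0 on mm10 per the submitters' processing notes; contig counts of UMIs and CDR3 bases came from the deposited annotations, which held productive contigs only. Cells with at least 1000 UMIs, 500 genes and at most 10% mitochondrial UMIs were kept, and 580 to 1130 barcodes per library (4.80% to 7.58%) with a doublet score of 0.25 or more, from simulated doublets, were removed. UMIs were summed per library and state and divided by the state's total (CPM). Ratios carry exact conditional Clopper-Pearson intervals, levels exact Poisson intervals and shares exact binomial intervals. Differences of all genes used log2(CPM + 1). Gates of gene pairs needed 2 UMIs of each. CDR3 bases were matched to germline segments in the GENCODE M21 transcripts. The members and lists were chosen with earlier results of these data known. Named genes were the 3 members, up to 4 genes of each list in a comparison (Lig4, named to give its group whole, was added after values were seen) and the 5 genes most like each member, of which 1 gene is not reported here. The comparison of all genes was tested on simulated data: of 200 genes changed 4-fold, 193 were recovered past 2-fold among 12662 genes in the IGH-only comparison of deleted and B220lo cells. Over all comparisons 176 to 200 were recovered. The simulated counts held counting error only, with no other difference between libraries, so they cannot show how library differences affect the calls. Python 3.11.15, numpy 2.4.6, scipy 1.17.1, pandas 2.3.3 and matplotlib 3.10.9 were used. Alternatives covered the cell filter, doublets, denominator, weighting of cells, B-lineage cut, centring, pseudocount, contig support, the largest clone, gate strictness and depth of thinning.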

Additional observations from a re-analysis of the deposited data

Results flagged for a closer look

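In summed UMIs, all 3 genes were lower with IGH only than without a contig in B220lo, and level or slightly higher in the deleted library. On the log2(CPM + 1) scale the step from no contig to IGH only in the deleted library exceeded that in B220lo by 0.583 for Rag1, 0.862 for Rag2 and 4.00 for Dntt; with 1 library each these differences were not tested. Dntt in Mll3/4SI was below control in Flt3+ and above it in Hlf+ progenitors, a gap of 0.578 on the same scale between gates that share cells, and it was not tested. In Hlf+ cells without any B-lineage UMI the direction turned, to -0.09.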

How the results depend on the processing

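The 7 main differences, all log2 values, kept their sign in 84 of 85 values under the alternatives, the exception being Rag1 in IGH-only cells. Of the 85 values 21 fell outside the counting interval of the main value. For deleted over B220lo in IGH-only cells (Rag1 0.70, Rag2 1.31, Dntt 5.61), the values were 0.081 and 0.89 for Rag1 and Rag2 as means over cells, which ended the 2-fold call of Rag2, 0.86 for Rag1 with the stricter cell filter, and 5.32, 5.32 and 5.21 for Dntt with no cell filter, with doublets kept and with a pseudocount of 10 CPM. With choices added after the data were seen, they were 3.69, 3.22 and 5.05 in cells with 10 or more surrogate light chain UMIs, -0.23, 0.52 and 5.09 with 0 G2/M UMIs, and 1.83 and 1.76 for Rag1 and Rag2 with 3 or more. IGH plus light chain over IGH only in B220lo was -0.76 for Rag1 and 0.23 for Dntt as means over cells, and -0.28 for Rag1 with contigs of at least 2 UMIs. Dntt in Flt3+ cells was 1.41 (deleted) and -1.21 (Mll3/4SI) outside the Mpo+ Elane+ gate, and in Mll3/4SI -0.52 as a mean over cells and -0.73 without any B-lineage UMI; that last alternative was not run for the deleted progenitors, which left under 20 cells. Rag2 in Mll3/4SI over control Flt3+ cells, 1.12, fell under 2-fold as a mean over cells (0.99) and with a pseudocount of 10 CPM (0.31). The cause of these moves was not tested.

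Of the other 194 values 59 fell outside the counting interval of their main value, and 188 of the 194 kept their sign. The exceptions were Rag1 in deleted over B220lo cells without a contig as a mean over cells (-0.02), Rag1 in deleted IGH only over no contig without the largest clone (-0.03), Dntt in deleted Hlf+ cells gated at 2 UMIs (-0.51), Dntt in Mll3/4SI Hlf+ cells without any B-lineage UMI (-0.09), and Dntt in Mll3/4SI Mpo+ Elane+ cells with no cell filter (-0.01) or with doublets kept (-0.01). With at least 100 UMIs in place of 20, the genes past 2-fold went from 34 to 22 higher and 679 to 378 lower for IGH only over no contig in B220lo, from 51 to 11 and 752 to 427 in deleted Flt3+, from 87 to 13 and 568 to 369 in deleted Hlf+, and from 123 to 47 higher in deleted Mpo+ Elane+ cells.

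No paired analysis was possible because each group has 1 library, so replicates could not be left out either. Intervals cover counting error only and say nothing of differences between animals. Free RNA was not measured, and contig states depend on how deeply receptor transcripts were read.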

Other observations

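Dntt was not confined to B-lineage cells in the control B220lo library. In 1402 Siglech+ Bst2+ cells, a gate for plasmacytoid dendritic cells, without contigs and under the B-lineage cut, it was at 187 CPM (178 to 196) and was found in 52.6% of cells, or 26.8% at 2000 UMIs, while Rag1 and Rag2 were at 7.75 and 4.30 CPM. Flt3+ cells of the same library, 1149 in number, held Dntt at 232 CPM. These gates share many cells. A Dntt UMI was found in 738 Siglech+ Bst2+ and 559 Flt3+ cells. All cells without contigs and under the cut in this library held 833 with Dntt. Mpo+ Elane+ cells there, 72 in number, held Dntt at 4.86 CPM, Rag1 at 3.24 CPM and Rag2 at 4.86 CPM. The interval of Rag1 was 0.882 to 8.29 CPM there and 6.06 to 9.75 CPM in the Siglech+ Bst2+ gate. B-lineage markers summed to 663 CPM in the Siglech+ Bst2+ gate and 235 CPM in the Mpo+ Elane+ gate.

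The 584 B220lo cells with a light chain but no heavy chain assembled held Rag1 at 132 CPM, Rag2 at 67.0 CPM and Dntt at 248 CPM. In them 44 cells with 10 or more surrogate light chain UMIs held Dntt at 1251 CPM, against 21.2 CPM in 398 cells with 0.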
